A study of Mus musculus with 4 samples.

Results

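The cells described here are CD8+ T cells from mouse tumours whose receptor transcripts join the beta variable segment Trbv20 to the alpha variable segment Trav7-3 or Trav12-1. A barcode was taken when it had 500 genes or more and no more than 10% of its UMIs (unique molecular identifiers, 1 per captured transcript) from mitochondrial genes, when Trbv20 was its highest beta segment, and when Trav7-3 or Trav12-1 was its highest alpha segment. Both segments needed 2 UMIs or more and had to exceed every other segment of their chain. The rule took 289 of 10416 cells to which such a pair could be assigned, out of 38316 cells that passed the filters in 4 libraries. They are called Trbv20 cells below, and Trav7-3 cells or Trav12-1 cells by their alpha segment.

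The libraries came from B16F10 tumours, a transplanted melanoma line, in C57BL/6J mice aged 6 to 8 weeks. There were 2 libraries labelled sgArid1a and 2 labelled sgScr. By their names these carry a guide RNA to Arid1a, which encodes a DNA-binding part of SWI/SNF, a chromatin remodeller, or a control guide, and the labels do not say which cells carry it. Tumours were dissociated with Liberase and DNase I, cleared of red cells and spun in Percoll, and live cells positive for CD45, CD3 and CD8 were sorted and sequenced from the 5′ end. The Trbv20 cells numbered 95 and 192 in the 2 sgArid1a libraries, against 2 and 0 in the 2 sgScr libraries. Their states were therefore compared within the sgArid1a libraries, with 1927 and 3922 cells of any other assigned pair (other-pair cells). A comparison of Trbv20 cells between sgArid1a and sgScr was not run, because the sgScr libraries held too few. The libraries held 7376 to 13085 barcodes and 32484099 to 81916795 UMIs, and the 2 sgArid1a sums of Trbv20 cells held 712534 and 2222097 UMIs. The labels do not say whether the 2 libraries of a group came from separate animals. With the library as a block, p-values measure only how far differences between classes of cells vary over these libraries. That spread may be technical.

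A T cell receptor is made of an alpha and a beta chain, each built by joining variable and joining segments, with a diversity segment in beta, to a constant region. The descendants of 1 T cell keep its joined genes, so a segment pair that recurs in many cells can mark an expanded clone, although different clones can share segments and the junctions that would separate them were not analysed here. CD8+ T cells that stay under antigen in tumours are known to pass from cells with the transcription factor TCF1 (Tcf7), which renew, to exhausted cells with the inhibitory receptors PD-1 (Pdcd1), TIM-3 (Havcr2), LAG-3 and TIGIT, which carry granzymes.

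The segments that chose the cells, and those outside the rule that set the 2 alpha groups apart, are shown first, since reads of near-identical copies decide what can be told apart. Sequences are the first 300 bases of the joined coding exons (all 59 of Traj7), 5′ to 3′ on the forward strand of GRCm38, in lower case, from the GENCODE M21 annotation. Capitals in Trav7-3 mark the 2 bases that differ from Trav7d-3 (99.4% identity over 337 coding bases), and capitals in Trav12-1 mark 16 of the 17 bases that differ from Trav12d-1 (95.1% over 347). Trbv20 lies at chr6:41188273-41188977, Trav7-3 at chr14:53443249-53443839 and Trav12-1 at chr14:53538191-53538738. The alpha joining segment Traj7 lies at chr14:54211470-54211528, and the gamma-chain variable segment Tcrg-V7 at chr13:19178024-19178492.
Trbv20: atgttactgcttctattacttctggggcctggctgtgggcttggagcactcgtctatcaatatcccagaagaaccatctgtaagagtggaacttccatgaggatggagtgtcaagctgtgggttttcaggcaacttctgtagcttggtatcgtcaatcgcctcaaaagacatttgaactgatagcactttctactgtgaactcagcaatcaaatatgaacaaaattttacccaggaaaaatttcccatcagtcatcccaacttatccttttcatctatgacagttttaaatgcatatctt
Trav7-3: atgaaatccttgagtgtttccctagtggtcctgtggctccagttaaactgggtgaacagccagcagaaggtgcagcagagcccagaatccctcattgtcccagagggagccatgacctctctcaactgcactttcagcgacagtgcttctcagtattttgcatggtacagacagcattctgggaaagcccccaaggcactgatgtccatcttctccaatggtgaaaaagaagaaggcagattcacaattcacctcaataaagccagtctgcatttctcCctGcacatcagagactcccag
Trav12-1: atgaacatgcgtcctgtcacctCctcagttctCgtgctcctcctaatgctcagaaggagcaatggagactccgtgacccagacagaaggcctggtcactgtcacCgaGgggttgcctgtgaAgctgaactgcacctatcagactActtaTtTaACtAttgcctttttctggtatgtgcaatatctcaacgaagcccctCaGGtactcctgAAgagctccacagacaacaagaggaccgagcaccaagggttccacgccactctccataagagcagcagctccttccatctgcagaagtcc
Traj7: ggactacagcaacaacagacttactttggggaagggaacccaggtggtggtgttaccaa
Tcrg-V7: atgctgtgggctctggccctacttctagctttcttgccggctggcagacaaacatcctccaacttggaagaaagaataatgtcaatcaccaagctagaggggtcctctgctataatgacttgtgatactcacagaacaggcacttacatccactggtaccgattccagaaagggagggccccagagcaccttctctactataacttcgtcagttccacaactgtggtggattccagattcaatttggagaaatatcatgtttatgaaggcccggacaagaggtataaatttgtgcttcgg

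Trbv20 cells made up 4.70% (95% Wilson interval 3.86% to 5.71%) and 4.67% (4.06% to 5.35%) of paired cells in the 2 sgArid1a libraries, against 0.0891% (0.0244% to 0.324%) and 0 of 2035 paired cells in the 2 sgScr libraries. The count of 0 allows a share of up to 0.147%. Trav7-3 cells numbered 45 and 112 in sgArid1a and 0 in both sgScr libraries. Trav12-1 cells numbered 50 and 80 in sgArid1a, against 2 and 0 in sgScr. The cells were picked for this difference, so it is a description and was not tested, and intervals cover counting error only.

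Among all paired cells with Trbv20, Trav7-3 or Trav12-1 was the alpha segment in 64.6% of 147 and 61.7% of 311 cells in sgArid1a, against 3.77% of 53 and 0 of 50 cells in sgScr. The other Trbv20 cells were spread over many alpha segments. In sgArid1a 28 and 43 alpha segments were seen with Trbv20, against 29 and 23 in sgScr. The commonest alpha segment outside the rule had 9 and 14 cells in sgArid1a, against 6 and 5 in sgScr. Cells with Trav7d-3, the near copy, numbered 9 and 11 in sgArid1a and were not taken, against 1 and 0 in sgScr.

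The threshold of 2 UMIs cut through the alpha counts more than the beta counts. Of the 289 cells, 98 had exactly 2 UMIs of their alpha segment and 9 had exactly 2 of Trbv20. Just outside lay 65 cells with Trbv20 assigned and a single UMI of Trav7-3 or Trav12-1 and of no other alpha segment, 63 of them in sgArid1a. A further 5 cells had a single Trbv20 UMI, and 11 cells were left out for a tie. The 2 sgArid1a libraries shared 218 barcodes, against 74 to 130 for the other pairs of libraries. No barcode belonged to a Trbv20 cell in both, and 4 Trbv20 cells had a barcode that the other sgArid1a library also held.

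The rule requires the assigned alpha segment to exceed every other, which limits how often a second one can be seen. A Trav12-1 UMI was found in 1 of 157 Trav7-3 cells (0.637%), and a Trav7-3 UMI in 1 of 130 sgArid1a Trav12-1 cells (0.769%), at a median of 3 and 4 alpha UMIs per Trbv20 cell. A second beta segment with 2 UMIs or more was present in 9.47% and 9.90% of Trbv20 cells, against 12.9% and 19.6% of other-pair cells.

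Transcripts of gamma-chain segments were found in a larger share of Trav7-3 cells than of other-pair cells. Of these, Tcrg-V7 set them apart from Trav12-1 cells most clearly, whereas Trgv2 was raised in both alpha groups. These genes were not used by the rule. Gamma genes can be rearranged and transcribed in T cells that carry an alpha-beta receptor. Tcrg-V7, a gamma variable segment, had a UMI in 68 of 157 Trav7-3 cells (43.3%, 35.8% to 51.1%), in 33.3% of those in replicate 1 and 47.3% in replicate 2. It had none in 130 Trav12-1 cells (up to 2.31%), and a UMI in 1.71% of other-pair cells and 0.0935% of sgScr other-pair cells. Of the 100 other-pair cells with a UMI of it, 69 were Trav10 Trbv13-1 cells, the largest pair of these libraries, of which 10.8% had one.

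Trgv2, another gamma variable segment, had a UMI in 50.3% of Trav7-3 cells and 22.3% of Trav12-1 cells, against 9.69% of other-pair cells. Tcrg-C2, a gamma constant region, had one in 35.0% of Trav7-3 and 9.23% of Trav12-1 cells, against 5.21% of other-pair cells. Traj7 was the only 1 of 76 joining and diversity segments in the files with a UMI in a Trav7-3 cell, and none had one in a Trav12-1 cell. It was found in 23 of 157 Trav7-3 cells, in 4.44% of those in replicate 1 and 18.8% in replicate 2. It was in 0 of 130 Trav12-1 cells, 1.42% of other-pair cells and 0.491% of sgScr other-pair cells. Trav10 Trbv13-1 cells held 50 of the 83 other-pair cells with a Traj7 UMI, and 7.80% of them had one, which is above the share of Trav7-3 cells in replicate 1 and below that in replicate 2. Trdc, the delta constant region that defines gamma-delta T cells, was at 0 in all 287 sgArid1a Trbv20 cells, which allows a share of up to 1.05%, against 0.684% of other-pair cells.

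Depth differed between the groups beside these shares. The median UMI count per cell was 9101 and 12349 in Trav7-3 cells and 3681 and 5530 in Trav12-1 cells, against 3533 and 5158 in other-pair cells and 4572 and 4571 in sgScr other-pair cells. After every cell was thinned to 2000 UMIs, which left out 10 Trav12-1 and 394 other-pair cells, Tcrg-V7 stayed in 21.7% of Trav7-3 cells, 0 of 120 Trav12-1 cells and 0.403% of other-pair cells. Trgv2 stood at 20.4% of Trav7-3 and 13.3% of Trav12-1 cells, against 3.85% of other-pair cells. Traj7 stood at 4.46% of Trav7-3 cells, against 0.165% of other-pair cells. The order of the groups was the same as without thinning.

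The 2 beta constant regions are near-identical copies, so the split of their reads is uncertain. Trbc1 took 38.8% of Trbc UMIs in Trav7-3 cells and 35.0% in Trav12-1 cells, against 27.8% in other-pair cells. By library it took 41.4% and 38.3% in Trav7-3 cells and 29.6% and 36.8% in Trav12-1 cells, against 30.4% and 27.1% in other-pair cells. The Trav12-1 values overlap those of other-pair cells and the Trav7-3 values do not.

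**Figure D1:**
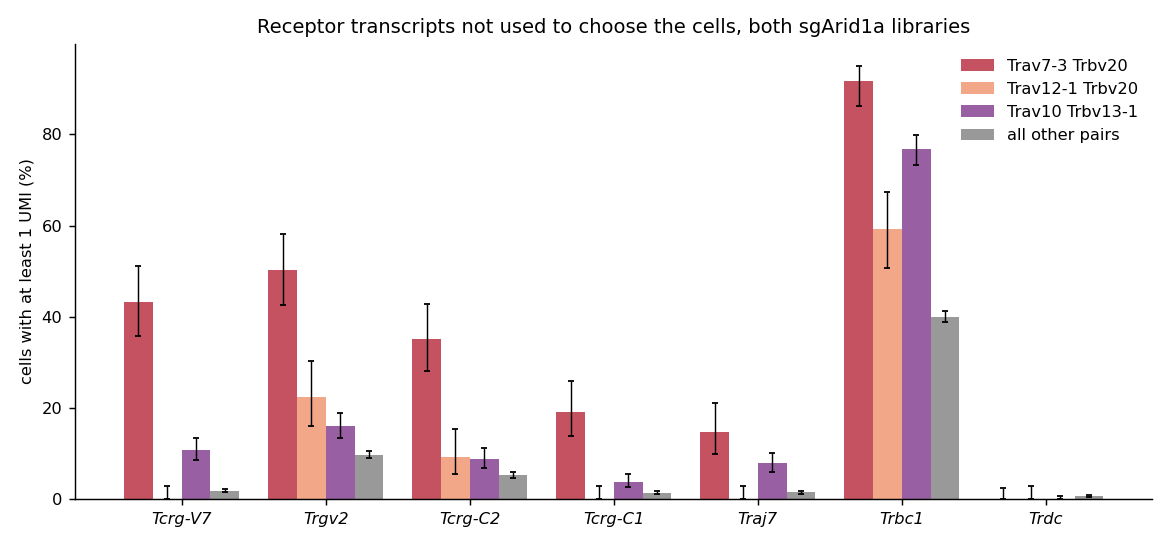
Share of sgArid1a cells with at least 1 UMI (y axis, %, both libraries together) of receptor transcripts not used to choose the cells, by receptor pair, with 95% Wilson intervals as bars; all other pairs include Trav10 Trbv13-1. Tcrg-V7 was found in 43.3% of Trav7-3 cells and in none of the Trav12-1 cells, and Trdc was at 0 in both.

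To place the cells by state, all 38316 cells were clustered on genes other than receptor segments, and each cluster was named from marker genes. Cluster 6, exhausted-like and led by Gzmd, Gzmg, Gzme, Gzmf and Gzmc, held 42.1% and 56.2% of Trbv20 cells, against 10.2% and 9.23% of other-pair cells in the same 2 libraries. Cluster 7, cycling-like and led by Ube2c and Birc5, held 41.1% and 31.8% of Trbv20 cells, against 19.5% and 16.2% of other-pair cells. Together with cluster 8, early activated-like and led by Ccl1 and Xcl1, which held 3.16% and 5.73% of Trbv20 cells against 6.23% and 6.02% of other-pair cells, these clusters held most of the Trbv20 cells. No Trbv20 cell of sgArid1a lay in the naive/central memory-like clusters 0 and 2, in cluster 3 (unnamed, led by Gbp2 and Id3) or in cluster 5 (memory-like). Of other-pair cells, 16.0% and 14.3% lay in cluster 3.

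The alpha groups were spread differently over these clusters. Cluster 6 held 31.1% and 50.9% of Trav7-3 cells and 52.0% and 63.8% of Trav12-1 cells. Cluster 7 held 64.4% and 39.3% of Trav7-3 cells, against 20% and 21.2% of Trav12-1 cells, and these 2 ranges do not overlap. Cluster 1, memory-like and led by Ccr2, Ifitm1 and Ccl5, held none of the Trav7-3 cells, against 24.0% and 8.75% of Trav12-1 cells. Both sgScr Trbv20 cells were Trav12-1 cells, and they lay in clusters 0 and 3.

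Because the genes that define clusters also differ between the groups, cluster sizes are given as a description. The planned test of shares was on these clusters, and its result is given with the alternatives below. A test that was not planned used a second clustering without 1919 genes. These were the genes called between Trbv20 and other-pair cells, between the alpha groups, or between Trbv20 and Trav10 Trbv13-1 cells. Genes called only between 1 alpha group and other-pair cells stayed in. There a single cluster, led by Pclaf, Ube2c, Ccl3, Nrgn, Birc5 and Gzmc, held 66.3% and 79.2% of Trbv20 cells, against 34.1% and 33.6% of other-pair cells. Its share was higher by 1.13 on the log2 scale (edgeR adjusted p = 0.00141 over 7 clusters), and 5 of the 7 clusters passed. The lowest share in Trbv20 cells was above the highest in other-pair cells. The genes left out were picked from these same cells, and genes that fell short of the cut stayed in. The second clustering is therefore not independent of the differences between the groups, and its p-value is no separate evidence.

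**Figure D2:**
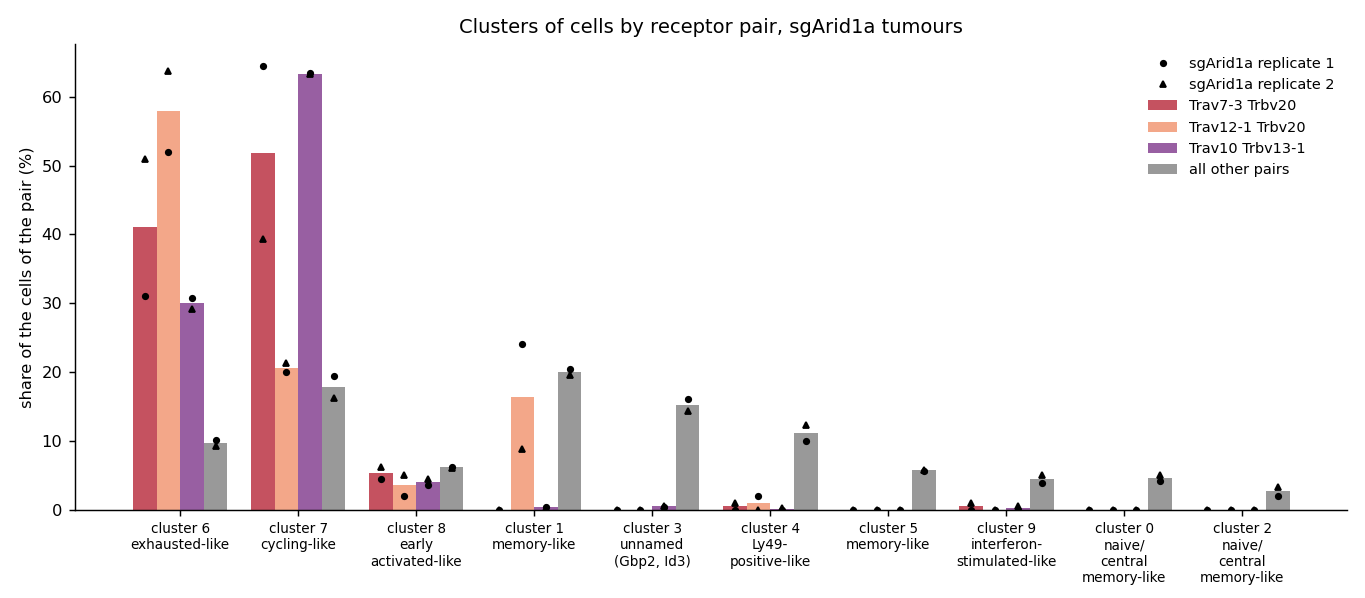
Share of the cells of each receptor pair (y axis, %) in 10 of the clusters (x axis) of the 2 sgArid1a libraries; bars are means of the 2 libraries, points the libraries, and all other pairs include Trav10 Trbv13-1. Trav7-3 and Trav12-1 cells sit mainly in clusters 6 and 7, where other-pair cells have 9.23% to 19.5% each.

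Gene expression was compared by summing UMIs per library and class, which gave 4 sums: Trbv20 cells and other-pair cells of each sgArid1a library. The values below are CPM, UMIs of a gene scaled to a common total per sum, replicate 1 before replicate 2. Differences are log2 ratios with SE from edgeR's quasi-likelihood test with the library as a block. This SE is the log2 difference divided by the square root of the test's F value. It leans on the spread shared across genes and is not the spread of the 2 libraries. The libraries can differ by far more, as their CPM show. Of 10379 genes tested, 1592 (15.3%) were called at an adjusted p under 0.05. In Trbv20 cells 699 of them (6.73%) were higher and 893 (8.6%) lower. The sums of the 2 groups did not overlap in 50.5% of all genes tested, so that a lack of overlap is common here. The largest changes were a rise in granzymes B, C, E and F, metallothioneins and gamma-chain transcripts, and a fall in genes of naive and memory cells. At least 2-fold, 119 genes (1.15%) were higher and 359 (3.46%) lower. The fit has 1 residual degree of freedom per gene, so calls lean on the spread shared across genes. DESeq2 called 360 genes on the same sums, and without replicate 2 edgeR called 504. With 1 library left each class has a single sum, so that fit has no block and takes its spread from the 2 sgScr other-pair sums.

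Granzymes are proteases that killer cells inject into targets through pores of perforin. Gzmb stood at 1422 and 1981 CPM in Trbv20 cells, against 597 and 543 in other-pair cells. The log2 difference was 1.54 ± 0.05 (SE of the fit, edgeR adjusted p = 1.33e-188). Gzmc stood at 466 and 1029 in Trbv20 cells, against 88.7 and 135 in other-pair cells (log2 difference 2.69 ± 0.07). Gzmf stood at 129 and 225 in Trbv20 cells, against 38.8 and 40.3 in other-pair cells (log2 difference 2.24 ± 0.09). With Trav12-1 cells alone as the Trbv20 cells, Gzmc turned to -0.63. The groups do not overlap for these genes, and replicate 2 is the higher of the Trbv20 libraries in each. Gzme rose as well (log2 difference 2.0 ± 0.14), but its values of 16.8 and 88.7 in Trbv20 cells overlap those of 11 and 18.4 in other-pair cells, and the call was lost without replicate 2. Gzmd was called higher too, but stood at 0 and 45.0 in Trbv20 cells, against 8.97 and 15 in other-pair cells, and its 100 UMIs came from 6 Trbv20 cells of replicate 2.

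Gzma, a granzyme of circulating effector and natural killer cells, fell instead. It stood at 2.81 and 2.25 in Trbv20 cells, against 77.2 and 70.8 in other-pair cells (log2 difference -4.97 ± 0.28). Prf1, which encodes perforin, stood at 295 and 444 in Trbv20 cells, against 223 and 208 in other-pair cells (log2 difference 0.79 ± 0.07), and DESeq2 did not call it. Of 19 cytotoxic effector genes tested, 12 rose and 4 fell, with a median log2 difference of 0.32 against -0.02 over all genes tested. Gzmg, which leads cluster 6 with the other granzymes, had a UMI in 0 of 287 Trbv20 cells of sgArid1a, which allows a share of up to 1.05%.

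Mt1 and Mt2 encode metallothioneins, small proteins that bind zinc. Mt1 stood at 473 and 329 in Trbv20 cells, against 91.9 and 82.4 in other-pair cells (log2 difference 2.09 ± 0.08). Mt2 stood at 87.0 and 61.7 in Trbv20 cells, against 15.3 and 11.4 in other-pair cells (log2 difference 2.40 ± 0.15). In both genes all Trbv20 sums lie above all other-pair sums, and both were called in 15 of 16 alternatives and lost when only Trav12-1 cells were used. The list of genes of exhausted cells to which they belong had 23 members tested, of which 16 rose and none fell (median log2 difference 0.56). S100a4, a calcium-binding protein in that list, was higher by 1.03 ± 0.05.

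Inhibitory receptors rose by smaller amounts. Havcr2 stood at 122 and 158 in Trbv20 cells, against 62.5 and 54.3 in other-pair cells (log2 difference 1.32 ± 0.10; edgeR adjusted p = 1.08e-40). Entpd1, which encodes the ectonucleotidase CD39, stood at 53.3 and 63.9 in Trbv20 cells, against 27.2 and 26.4 in other-pair cells (log2 difference 1.15 ± 0.14). The groups do not overlap for either gene.

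Pdcd1 stood at 509 and 583 in Trbv20 cells, against 333 and 328 in other-pair cells (log2 difference 0.69 ± 0.06). Lag3 was higher by 0.83 ± 0.08 and Tigit by 0.79 ± 0.07, with no overlap of the groups. Of 18 inhibitory receptors tested, 8 rose, 4 fell (Nt5e, Cd160, Vsir and Btla) and the median log2 difference was 0.34. Among 14 transcription factors of exhaustion, 7 rose and 2 fell (median 0.49). Tox stood at 187 and 185 in Trbv20 cells, against 127 and 121 in other-pair cells (log2 difference 0.54 ± 0.09), and Id2 was higher by 0.62 ± 0.07. Eomes and Ikzf2 were the 2 that fell.

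The genes of progenitor and memory cells moved the other way, with 21 of 25 tested lower and none higher (median log2 difference -2.50). Tcf7 stood at 19.6 and 30.6 in Trbv20 cells, against 130 and 168 in other-pair cells (log2 difference -2.56 ± 0.13). Il7r, the receptor for the survival cytokine IL-7, stood at 32.3 and 46.8 in Trbv20 cells, against 186 and 201 in other-pair cells (log2 difference -2.25 ± 0.12). No sums overlap, and both genes were called in all 16 alternatives.

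Genes of exit from tissue and of quiescence fell with them. Klf2, a factor that keeps T cells in circulation, stood at 25.3 and 26.1 in Trbv20 cells, against 146 and 230 in other-pair cells (log2 difference -3.05 ± 0.13). S1pr1, the egress receptor, had a log2 difference of -3.69 ± 0.28 and Ccr7, a lymph node homing receptor, of -2.90 ± 0.16. Slamf6, a surface marker of progenitor exhausted cells, stood at 16.8 and 20.7 in Trbv20 cells, against 50.5 and 50.8 in other-pair cells (log2 difference -1.42 ± 0.17). Also among the 12 largest falls were Id3, Gpr18, Fam241a, Satb1, Klf3 and Rflnb, with log2 differences of -2.84 to -2.52. Of 14 quiescence genes, 11 fell and none rose (median -0.79).

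Chemokines and cytokines split. Xcl1, which attracts cross-presenting dendritic cells, stood at 136 and 113 in Trbv20 cells, against 765 and 607 in other-pair cells (log2 difference -2.50 ± 0.08). Csf1, the macrophage growth factor, stood at 71.6 and 72.9 in Trbv20 cells, against 33.5 and 29.7 in other-pair cells (log2 difference 1.19 ± 0.13). The groups do not overlap in either. Ifng stood at 202 and 210 in Trbv20 cells, against 146 and 147 in other-pair cells (log2 difference 0.44 ± 0.08), a call lost in 5 of 16 alternatives. Of 15 such genes tested, 4 rose and 5 fell (median -0.26).

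Interferon-stimulated genes were lower in the Trbv20 cells. Of 29 type I interferon-stimulated genes tested, 18 fell and none rose (median log2 difference -0.70), and of 26 interferon-gamma response genes 16 fell and 1, Psmb9, rose (median -0.66). Isg15, a ubiquitin-like protein of the antiviral response, stood at 25.3 and 32.9 in Trbv20 cells, against 80.0 and 81.7 in other-pair cells (log2 difference -1.45 ± 0.14). Rtp4 stood at 9.82 and 13.5 in Trbv20 cells, against 47.6 and 50.7 in other-pair cells (log2 difference -2.04 ± 0.20). Socs3, an inhibitor of cytokine signalling, had a log2 difference of -3.49 ± 0.30. Other-pair cells of sgScr had 33.6 and 38.8 of Isg15, so the level in Trbv20 cells lay nearer to the sgScr values than to those of other-pair cells of the same libraries.

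Genes of the cell cycle and of glycolysis rose modestly. Of 25 S phase genes 16 rose and none fell (median log2 difference 0.37), of 24 G2/M genes 15 rose and none fell (median 0.34), and of 17 glycolysis genes 8 rose and none fell (median 0.23). Mki67, a marker of dividing cells, stood at 237 and 186 in Trbv20 cells, against 176 and 131 in other-pair cells (log2 difference 0.42 ± 0.08). Its call was lost in 5 of 16 alternatives, among them the fit without the block and the fit without replicate 2. The share of cells in cluster 7, higher in Trbv20 cells, moves with these genes, and with cycling-like clusters left out 1458 genes were called.

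Genes of the receptor complex differed by small amounts in both directions. Of 17 genes of the receptor complex and co-receptors, 4 rose and 6 fell (median log2 difference -0.10). Cd3e stood at 999 and 1140 in Trbv20 cells, against 870 and 944 in other-pair cells (log2 difference 0.18 ± 0.05), a call that DESeq2 and 6 other alternatives did not make. Cd8a stood at 712 and 832 in Trbv20 cells, against 693 and 727 in other-pair cells, and did not pass (edgeR adjusted p = 0.458). Cd5, a receptor that dampens T cell receptor signals, stood at 108 and 92.3 in Trbv20 cells, against 175 and 179 in other-pair cells (log2 difference -0.92 ± 0.10). Of 23 genes induced early by the receptor, 5 rose and 7 fell (median -0.12), and Nr4a1 was among those that fell.

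Arid1a itself did not pass the test, at 91.2 and 70.7 in Trbv20 cells, against 72.7 and 71.9 in other-pair cells and 84.0 and 92.4 in sgScr other-pair cells. Of 20 SWI/SNF subunits, 1 rose and none fell. Among the 12 largest rises, the gene groups not yet named were gamma-chain transcripts, with Tcrg-V7 at 42.1 and 76.5 in Trbv20 cells, against 2.89 and 3.58 in other-pair cells (log2 difference 4.24 ± 0.19), Trgv2 and Tcrg-C2 (log2 difference 1.91 each). Filip1, AA467197 and Crmp1 completed them, with log2 differences of 1.80, 1.77 and 1.46.

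**Figure D3:**
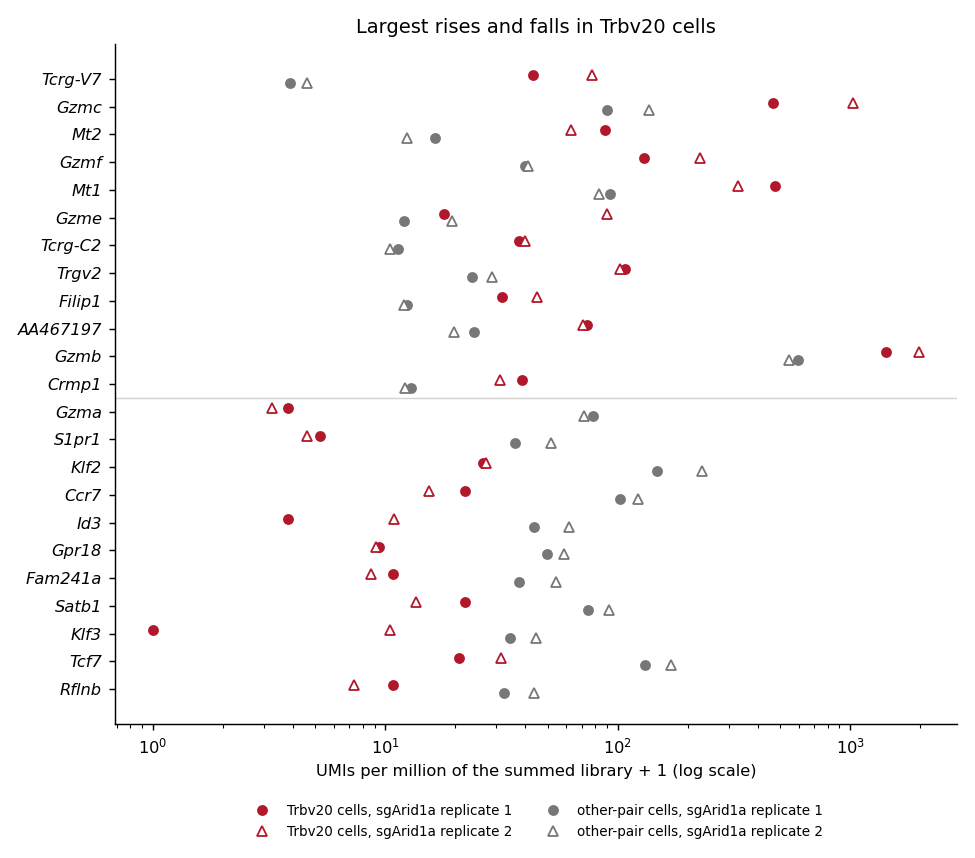
CPM plus 1 (x axis, log scale) of the 12 largest rises and 11 of the 12 largest falls by the naming rule, in Trbv20 cells (red) and other-pair cells (grey) of each sgArid1a library. The groups plotted are apart except for Gzme, whose 16.8 in Trbv20 cells of replicate 1 lies below the 18.4 of other-pair cells of replicate 2.

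Markers of other cell types were checked beside these results. The summed level of 8 B cell markers was 44.9 and 35.6 CPM in Trbv20 cells, against 132 and 145 in other-pair cells, and all 3 that were tested fell, among them Ighm (log2 difference -1.89 ± 0.14). Cd22, Cd79a and Ms4a1 were at 0 in Trbv20 cells. The 10 macrophage markers summed to 232 and 240 in Trbv20 cells, against 205 and 190 in other-pair cells, with Adgre1 and Csf1r at 0. The 6 natural killer cell markers summed to 66.0 and 103 in Trbv20 cells, against 77.6 and 68.5 in other-pair cells. The 4 CD4 and regulatory T cell markers summed to 2.81 and 7.65 in Trbv20 cells, against 9.55 and 7.37 in other-pair cells, and 7 melanoma markers to 0 and 1.35, against 1.35 and 1.90. The 9 dendritic cell and MHC class II markers summed to 138 and 111 in Trbv20 cells, against 139 and 129 in other-pair cells, with Clec9a, Flt3, Siglech and Xcr1 at 0. The 6 gamma-delta T cell markers summed to 50.5 and 55.8, against 15.6 and 17.3, with Sox13, Trdc and Trdv4 at 0. The part of these transcripts in the results was not tested.

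A sum mixes cells of all clusters, and the share of clusters 6 and 7 is higher in Trbv20 cells. Within cluster 6 alone, with 40 and 108 Trbv20 cells, 56 of 7599 genes tested passed, 33 higher and 23 lower. Of the 1592 genes called over all cells, 44 were called there in the same direction. The sign was opposite there for 320 of them, called or not. Gzmc (log2 difference 1.82), Mt1 (1.46), Mt2 (1.68), Tcrg-V7 (2.93) and Csf1 (0.74) were higher in Trbv20 cells there. Xcl1 (-2.12), Tcf7 (-1.55), Klf2 (-1.51), Il7r (-1.18) and Cd5 (-0.98) were lower. Gzmd was lower there as well (-1.93), the opposite of its call over all cells, as were the chemokines Ccl3 (-1.18) and Ccl4 (-1.14), and Gzmf (-0.27), Gzme (-0.21) and Prf1 (-0.11) did not pass. Havcr2, Pdcd1, Lag3, Tigit, Entpd1 and Isg15 did not pass within cluster 6.

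The 2 alpha groups were next compared with each other in the same way, with 45 and 112 Trav7-3 cells against 50 and 80 Trav12-1 cells. Trav7-3 cells had more of granzymes B, C, E and F and of Mt1, while Trav12-1 cells carried more Gzmk, Ccl5, Serpina3g and Klre1. Some transcripts of the receptor complex were also higher in Trav12-1 cells, but the calls of Trac, Cd3e and Cd8a were lost after thinning to 2000 UMIs. Of 5624 genes tested, 316 (5.62%) passed, 129 higher (2.29%) and 187 lower (3.33%) in Trav7-3 cells, and 49.7% of all genes tested did not overlap between the groups. With a library left out the balance turned, to 185 higher and 138 lower without replicate 1 and 194 higher and 144 lower without replicate 2. DESeq2 tested 827 genes and called 46, and 13 of 1845 genes passed after thinning to 2000 UMIs. Median UMIs per cell, given above, are higher in the Trav7-3 cells of both libraries, and their part in the other calls was not tested beyond that thinning.

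Gzmf stood at 185 and 309 CPM in Trav7-3 cells, against 4.55 and 0 in Trav12-1 cells, where a single UMI was counted, a ratio of 231 (95% counting interval 41.2 to 9126). Gzme stood at 24.3 and 122 in Trav7-3 cells, against 0 in both libraries of Trav12-1 cells, so it was at least 27.1-fold higher with 3 UMIs over the group as the floor. Gzmd was at least 13.0-fold higher on the same floor, and Tcrg-V7 at least 26.0-fold. These UMIs came from part of the cells: Gzmf had a UMI in 24.4% and 27.7% of Trav7-3 cells, Gzme in 12 of 157 and Gzmd in 6 of 157, all 6 in replicate 2. Cells rather than UMIs vary independently, so the interval and floors cover counting error only. Gzmc stood at 672 and 1370 in Trav7-3 cells, against 4.55 and 114 in Trav12-1 cells (log2 difference 3.87 ± 0.19; edgeR adjusted p = 1.39e-85). Gzmc had a UMI in 46.7% and 41.1% of Trav7-3 cells, against 1 of 50 and 5 of 80 Trav12-1 cells. Replicate 2 had the higher CPM in both groups, and the groups do not overlap.

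Gzmb stood at 1800 and 2459 in Trav7-3 cells, against 574 and 700 in Trav12-1 cells (log2 difference 1.69 ± 0.13). Other-pair cells had 597 and 543, so the rise of Gzmb over other-pair cells stood with the Trav7-3 cells (log2 difference 1.83 ± 0.07) and was 0.17 ± 0.10 in Trav12-1 cells, which did not pass. Mt1 stood at 639 and 414 in Trav7-3 cells, against 100 and 99.5 in Trav12-1 cells (log2 difference 2.23 ± 0.19). Rgs8, a regulator of G protein signalling, stood at 32.5 and 45.1 in Trav7-3 cells, against 0 and 4.97 in Trav12-1 cells with 3 UMIs in all, a ratio of 11.6 (3.83 to 57.1).

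In the other direction, Gzmk, a granzyme of less differentiated effector and memory cells, stood at 48.7 and 69.2 in Trav7-3 cells, against 305 and 312 in Trav12-1 cells (log2 difference -2.36 ± 0.20). The chemokine Ccl5 stood at 2319 and 3057 in Trav7-3 cells, against 11282 and 10251 in Trav12-1 cells (log2 difference -2.07 ± 0.10). Serpina3g, a protease inhibitor of activated T cells, stood at 73.0 and 89.6 in Trav7-3 cells, against 414 and 429 in Trav12-1 cells (log2 difference -2.39 ± 0.18). None of these groups overlap, and the 3 genes were called in all 11 alternatives, thinning and cluster 6 alone included.

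Klre1, a killer lectin-like receptor, stood at 2.03 and 11.7 in Trav7-3 cells, against 82.0 and 91.2 in Trav12-1 cells (log2 difference -3.31 ± 0.38). Ly6c2, a surface protein of memory and effector cells, had a log2 difference of -1.24 ± 0.14, and Cxcr3, a chemokine receptor for inflamed tissue, of -1.91 ± 0.32. The interferon-stimulated gene Ifi27l2a stood at 158 and 249 in Trav7-3 cells, against 892 and 744 in Trav12-1 cells (log2 difference -1.99 ± 0.15). It was the only 1 of 15 type I interferon-stimulated genes that passed, and Isg15 did not (edgeR adjusted p = 0.756). The other large falls were Pkp3, Dnajb13 and Fgl2, with log2 differences of -2.50, -3.07 and -2.21.

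All 8 genes of the receptor complex and co-receptors that passed, of 17, were lower in Trav7-3 cells (median log2 difference -0.33). Trac, the alpha constant region, stood at 209 and 240 in Trav7-3 cells, against 533 and 499 in Trav12-1 cells (log2 difference -1.23 ± 0.16). Its call was lost after thinning to 2000 UMIs. The rule required 2 UMIs or more of the alpha segment, which is joined to Trac in the same transcript. The part of that requirement in the difference was not tested. Cd8a stood at 570 and 789 in Trav7-3 cells, against 1029 and 947 in Trav12-1 cells (log2 difference -0.58 ± 0.13). That call was lost in 5 of 11 alternatives, among them DESeq2 and thinning. Heat shock genes went the other way, with 6 of 17 higher and none lower, Hsp90aa1 by 1.08 ± 0.14, as did glycolysis genes, with 5 of 16 higher and none lower, Ldha by 0.65 ± 0.12. Of 23 S phase genes, 3 were higher, Mcm3 among them (0.92 ± 0.20). The share of cells in cluster 7 is also higher in Trav7-3 cells, and with cycling-like clusters left out 126 genes passed.

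The receptors of exhaustion did not separate the alpha groups as clearly. Pdcd1 stood at 463 and 589 in Trav7-3 cells, against 615 and 567 in Trav12-1 cells, and Havcr2 at 108 and 169, against 155 and 128. Both overlap and neither passed (edgeR adjusted p = 0.533 and 0.943). Tigit stood at 270 and 286 in Trav7-3 cells, against 437 and 429 in Trav12-1 cells (log2 difference -0.69 ± 0.16), and DESeq2 did not call it. Lag3 passed narrowly (log2 difference -0.52 ± 0.17, edgeR adjusted p = 0.0463) and was called in 1 of 11 alternatives. Tcf7 stood at 14.2 and 34.0 in Trav7-3 cells, against 31.9 and 21.6 in Trav12-1 cells, and none of 11 progenitor and memory genes tested passed.

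The 2 comparisons of the alpha groups with other-pair cells share those cells, so their values are set side by side only. Of 10426 genes tested in Trav7-3 cells 1430 passed (13.7%), 5.64% higher and 8.08% lower. Of 10197 tested in Trav12-1 cells 473 passed (4.64%), 2.16% higher and 2.48% lower. Pdcd1 differed from other-pair cells by a log2 value of 0.62 in Trav7-3 and 0.79 in Trav12-1 cells, Havcr2 by 1.31 and 1.22, Lag3 by 0.66 and 1.15, and Tcf7 by -2.53 and -2.72, all of them called. Gzmk differed by -1.08 in Trav7-3 and 1.23 in Trav12-1 cells, and Ccl5 by -0.71 and 1.33, so that over all Trbv20 cells Gzmk stood at 128 and 135 against 134 and 125 and did not pass. Of the 316 genes that separated the alpha groups, 41 were called in opposite directions against other-pair cells and 21 in the same direction. S phase genes called higher numbered 17 of 25 in Trav7-3 and 0 of 25 in Trav12-1 cells, with median log2 differences of 0.51 and -0.09. The Trav12-1 sums held 219636 and 603176 UMIs, against 492898 and 1618921 in the Trav7-3 sums. Counts of calls in the 2 fits are therefore not on equal terms.

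**Figure D4:**
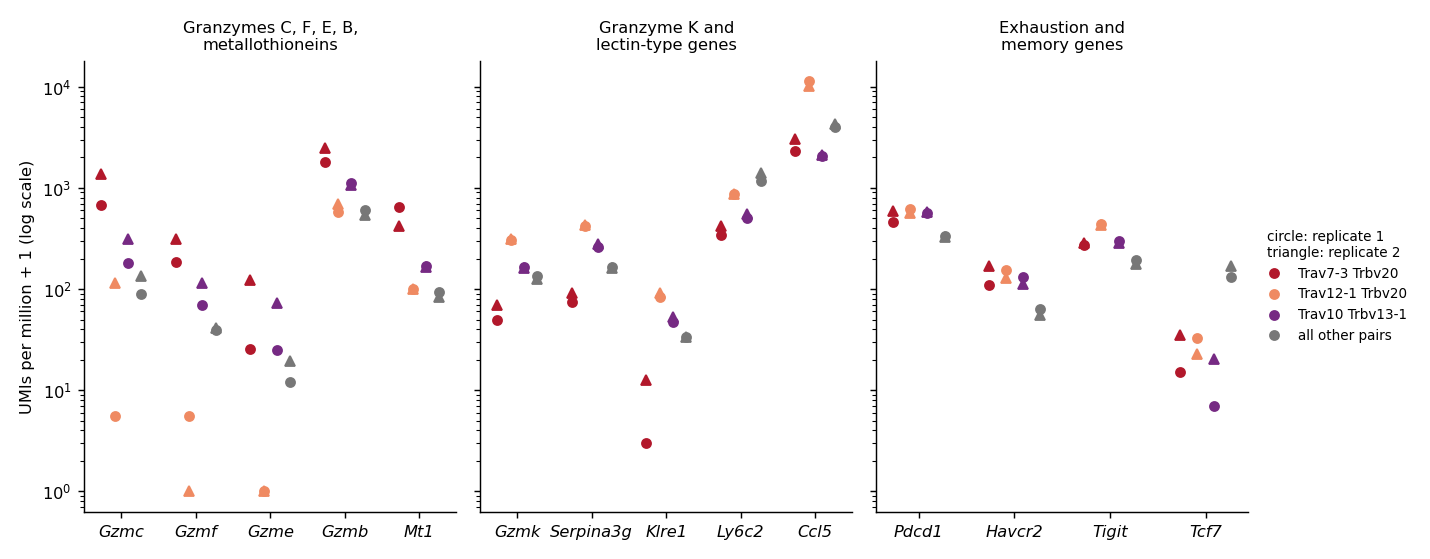
CPM plus 1 (y axis, log scale) of named genes in Trav7-3, Trav12-1, Trav10 Trbv13-1 and all other-pair cells of the sgArid1a libraries (circles replicate 1, triangles replicate 2). Granzymes C, F, E and B and Mt1 are higher in Trav7-3 than in Trav12-1 cells, Gzmk, Serpina3g, Klre1, Ly6c2 and Ccl5 are lower, and Pdcd1, Havcr2 and Tcf7 overlap.

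The largest pair in the sgArid1a libraries was Trav10 with Trbv13-1, with 254 and 387 cells against 3 and 2 cells in the sgScr libraries. Of 914 pairs seen in sgArid1a, 14 had at least 40 cells and 244 had a single cell. Trav10 Trbv13-1 cells lay in cluster 6 at 30.7% and 29.2% and in cluster 7 at 63.4% and 63.3%. The median UMI count per cell was 5907 and 9049 in Trbv20 cells, against 9764 and 15955 in Trav10 Trbv13-1 cells. Another pair with at least 40 cells, Trav14d-3-dv8 with Trbv31, had 51.2% and 43.1% in cluster 6. By contrast, Trav13-1 with Trbv3 had 62.9% and 52.8% in the memory-like cluster 1.

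Trbv20 cells differed from Trav10 Trbv13-1 cells in fewer genes. Of 9072 genes tested 485 (5.35%) passed, 256 higher (2.82%) and 229 lower (2.52%), and DESeq2 called 32. With a library left out the balance turned, to 189 higher and 327 lower without replicate 1 and 49 higher and 114 lower without replicate 2. The groups did not overlap in 40.8% of all genes tested. Nrn1, a small membrane-anchored protein, stood at 73.0 and 111 in Trbv20 cells, against 1.5 and 6.10 in Trav10 Trbv13-1 cells (log2 difference 4.38 ± 0.19; edgeR adjusted p = 2.52e-21). Nrn1 in sgScr other-pair cells stood at 57.0 and 49.0. The Trav10 Trbv13-1 cells were thus the low group for this gene.

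Gzmc stood at 466 and 1029 in Trbv20 cells, against 179 and 310 in Trav10 Trbv13-1 cells (log2 difference 1.61 ± 0.07), and Mt1 was higher by 1.19 ± 0.08. Within cluster 6 Gzmc was higher by 0.78, whereas Gzmd (log2 difference -3.23), Gzme (-1.48), Gzmf (-1.02) and Prf1 (-0.42) were called lower in Trbv20 cells. Ccl5 stood at 5082 and 5010 in Trbv20 cells, against 2042 and 2096 in Trav10 Trbv13-1 cells (log2 difference 1.28 ± 0.03). Tcrg-V7 was higher by 2.73 ± 0.18, although 10.8% of Trav10 Trbv13-1 cells had a UMI of it, and Trgv2 by 2.58 ± 0.15. None of these groups overlap. The values pool the alpha groups, which differ in some of these genes. Trav7-3 minus Trav12-1 cells gave a log2 difference of 3.87 for Gzmc and -2.07 for Ccl5. Tcrg-V7 and Gzme had no UMI in Trav12-1 cells. Neither alpha group was compared with Trav10 Trbv13-1 cells on its own.

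Cd5 stood at 108 and 92.3 in Trbv20 cells, against 265 and 286 in Trav10 Trbv13-1 cells (log2 difference -1.53 ± 0.10), and Cd6, a related receptor, had a log2 difference of -1.13 ± 0.12. Xcl1 stood at 136 and 113 in Trbv20 cells, against 642 and 297 in Trav10 Trbv13-1 cells (log2 difference -1.72 ± 0.10). Spp1, which encodes the secreted protein osteopontin, had a log2 difference of -1.63 ± 0.15 and Pkp3 of -1.40 ± 0.14. Each of Cd5, Xcl1, Spp1 and Pkp3 was called in all 11 alternatives.

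Of 24 G2/M genes, 19 were lower and none higher in Trbv20 cells (median log2 difference -0.55), Birc5 (-0.66 ± 0.08) among them, and of 17 glycolysis genes 10 were lower. The share of cells in cluster 7 is lower in Trbv20 cells as well, and with cycling-like clusters left out 203 genes passed. Mki67 stood at 237 and 186 in Trbv20 cells, against 296 and 251 in Trav10 Trbv13-1 cells (log2 difference -0.40 ± 0.08), a call kept in 5 of 11 alternatives. It was lost with DESeq2, without the block, with 3 UMIs of each segment, after thinning and without cycling-like clusters, and within cluster 6 its sign turned to 0.26, without passing. Pdcd1 stood at 509 and 583 in Trbv20 cells, against 560 and 579 in Trav10 Trbv13-1 cells, and Havcr2 at 122 and 158, against 129 and 112. Both overlap and neither passed (edgeR adjusted p = 0.754 and 0.0924). Of 18 progenitor and memory genes, 5 were higher and 2 (Xcl1 and Ccr7) lower in Trbv20 cells (median log2 difference 0.498). Of 23 type I interferon-stimulated genes, 3 were higher and none lower (median 0.28). Tcf7 (log2 difference 0.83), Il7r (0.998), Isg15 (0.91) and Gzmb (0.65) were called higher. These calls held in 4, 7, 6 and 7 of 11 alternatives, and DESeq2 made none of them. Tcf7, Il7r and Isg15 were thus lower still in Trav10 Trbv13-1 cells.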

How the data were processed

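UMI counts per gene and cell were deposited by the authors as raw whole numbers for 32285 features. The matrices were made with cellranger 6.0.1, per the file headers, whereas Cell Ranger 3.0.2, Seurat and mm10 are named per the submitters' processing notes. The filter kept cells of 500 genes or more with no more than 10% mitochondrial UMIs. Doublets were not called, and cells with a second beta segment of 2 UMIs or more were left out as an alternative. Cells were clustered with scanpy 1.11.5 and leidenalg 0.10.2 (2000 variable genes, 30 components, 15 neighbours, resolution 0.8). The clustering left out receptor, immunoglobulin, mitochondrial, ribosomal protein and sex-linked genes. The tests left out only 239 rows of alpha and beta variable, diversity and joining segments. UMIs were summed per library and class and tested with edgeR 4.0.16 (quasi-likelihood, TMM, its own low-count filter, library as block, Benjamini-Hochberg at 0.05), with DESeq2 1.42.0 as an alternative. Each fit had 4 sums and 1 residual degree of freedom. The block joins sums of the same library, and the correlation of library deviations between classes was 0.148, 0.0071 and 0.12 in the 3 comparisons. A sum needed 40 cells instead of the 50 planned, since the Trav7-3 cells of replicate 1 numbered 45. On simulated counts with 2-fold changes the test recovered 74% of changed genes in the comparison with other-pair cells. It recovered 49.4% between alpha groups and 77% against Trav10 Trbv13-1 cells. These counts were drawn independently from the fitted spread, with 200 genes changed and no library effect. They hold no mixture of cells, so recovery in the real sums can differ.

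The cells and the 29 gene lists were chosen with earlier results of these data known. Genes named were the 12 largest rises and falls (6 in the other comparisons) among called genes of a mean of 20 CPM or more, the 3 members of each list with the smallest p, and a set of always reported genes. Any other gene named was chosen after its values were seen. Reads of the near copies Trav7d-3 and Trav12d-1 and of the 2 beta constant regions may be split between copies. Receptor contigs were not used here. Some items withheld for evaluation are not reported here.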

Additional observations from a re-analysis of the deposited data

Results flagged for a closer look

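The genes below lay on opposite sides of other-pair cells in Trav7-3 and Trav12-1 cells, and the difference between the alpha groups passed edgeR's test in each. Lower in Trav7-3 cells than in Trav12-1 cells were Klre1 (log2 difference -3.31), Serpina3g (-2.39), Gzmk (-2.36), Ccl5 (-2.07), Ifi27l2a (-1.99), Btg1 (-1.46), an antiproliferative factor, and Trac (-1.23). Higher in Trav7-3 cells were Gzmc (3.87), Hsp90aa1 (1.08) and Ldha (0.65). Gzmf had a ratio of 231 with 1 UMI in Trav12-1 cells, and Gzme was at least 27.1-fold higher with none. After thinning to 2000 UMIs the calls of Klre1, Btg1, Trac, Hsp90aa1 and Ldha were lost, and Gzme was lost without replicate 2. The Trav7-3 cells have the higher median UMI count in both libraries.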

How the results depend on the processing

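Against other-pair cells 1592 genes passed, against 886 without the replicate block, 360 with DESeq2, 823 with at least 3 UMIs of each segment, 552 after thinning, 56 in cluster 6 alone, 971 with sgScr sums in the fit and no block, and 473 with Trav12-1 cells alone. Fits with a library left out have 1 sum a class, no block and sgScr sums, whose spread the lone sums are assumed to share, so they change these choices together and test more genes (11663 and 11955 here, against 10379). They gave 504 (without replicate 2) to 1374, and the share of higher calls was 43.9%, but 24.0% without replicate 2. Between alpha groups 316 passed, against 203 without the block, 46 with DESeq2, 208 with 3 UMIs, 13 after thinning, 126 without cycling-like clusters and 115 in cluster 6. Leaving out a library gave 323 to 338, of which 57.3% and 57.4% were higher. Without the low-count filter 53.6% of those calls were higher, against 40.8% with it. Against Trav10 Trbv13-1 cells 485 passed, against 166 without the block, 32 with DESeq2, 170 with 3 UMIs, 197 after thinning, 203 without cycling-like clusters and 98 in cluster 6. Leaving out a library gave 163 (without replicate 2) to 516, of which 30.1% and 36.6% were higher, against 52.8%. The cause of these shifts was not tested. The median log2 difference over all genes was -0.12 without replicate 2 and -0.17 without the filter.

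Trbv20 cells were 3.64% and 3.29% of paired sgArid1a cells with 1 UMI of each segment, 5.37% in replicate 2 with 3 UMIs, where sgScr replicate 1 had 0, and 6.00% in replicate 1 when 1000 genes and no more than 5% mitochondrial UMIs were required. Of cluster shares 9 of 13 passed, against 2 at resolution 0.5, 3 without cells with a second beta segment and 5 without the called genes. After thinning, shares of Trav7-3 cells with a UMI were 4.46% for Traj7, 21.7% for Tcrg-V7, 20.4% for Trgv2 and 42.7% for Trbc1, and of Trav12-1 cells 13.3% for Trgv2 and 33.3% for Trbc1. Of 1729 values of named genes under alternatives, 1558 kept direction and call, 152 lost the call, 4 gained one and 15 reversed. In cluster 6 these were Gzmf (-0.27), Gzme (-0.21), Prf1 (-0.11), Tox (-0.18), Ccl1 (0.84), Mcm3 (-0.11), Cenpa (-0.0802) and Gapdh (-0.12), and Mki67 (0.26) against Trav10 Trbv13-1 cells. With Trav12-1 cells alone they were Gzmc (-0.63), Gzmf (-5.05), Gzme (-10.48), Tcrg-V7 (-8.21) and Mcm3 (-0.28), fitted values that for Gzmf, Gzme and Tcrg-V7 rest on 0 or 1 UMIs, and with Trav7-3 cells alone Cd3e (-0.0355).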

Other observations

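Further gene groups were compared between Trbv20 cells and other-pair cells. Of 17 homing and chemokine receptors, 5 rose and 6 fell (median log2 difference -0.12). Cxcr6, a receptor of tumour-resident T cells, stood at 493 and 665 CPM in Trbv20 cells, against 326 and 332 in other-pair cells, whereas Itgb7, an integrin of gut homing, fell (log2 difference -2.26). Of 19 cytokine receptors 3 rose and 8 fell (median -0.20), of 18 heat shock and dissociation genes 2 rose and 7 fell (-0.15), and of 16 Ly49 and killer lectin genes 3 rose and 5 fell (-0.37). Terminal effector genes (5 rose and 4 fell of 13) and tissue residency genes (4 rose and 3 fell of 10) split as well.

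Cells with Trbv20 as highest beta segment (2 UMIs or more, ties not excluded) and no UMI of an alpha variable segment numbered 713 in sgArid1a. Of these, 72 had a UMI of Traj7 and 17 of Tcrg-V7. Of the 20 cells with Trbv20 and Trav7d-3, the near copy of Trav7-3, none had a UMI of Tcrg-V7 and 2 had one of Traj7. Of 151 cells with Trbv20 and another alpha segment, 5.96% had a UMI of Tcrg-V7. Other large pairs of the sgArid1a libraries lay in different clusters. Trav7d-3 with Trbv16 had 72.7% and 63.8% of its cells in the cycling-like cluster 7. Trav2 with Trbv19 had 59.3% and 68.4% in the memory-like cluster 1. Whether these pairs are expanded clones was not tested.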
